A study of Arabidopsis thaliana with 12 samples.

Results

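The metacaspases of Arabidopsis thaliana, MC1 to MC9, were followed across 12 leaf arrays. The 9 genes were taken by their AGI locus identifiers, without use of any measured value, from 32627 loci on the array, and all 9 were found. They are MC1 (AT1G02170), MC2 (AT4G25110), MC3 (AT5G64240), MC4 (AT1G79340), MC5 (AT1G79330), MC6 (AT1G79320), MC7 (AT1G79310), MC8 (AT1G16420) and MC9 (AT5G04200). No filter on low values was applied, so every member was tested.

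All plants carried a dexamethasone (DEX)-inducible MKK4DD transgene, which encodes a constitutively active form of the MAPK kinase MKK4. The transgene was in the wild-type Col background or in the sid2-2 mutant (sid2), which lacks the main enzyme of salicylic acid (SA) synthesis during immune responses. Leaves of plants aged 4 weeks were infiltrated with 2 µM DEX or with 0.1% ethanol (mock), and RNA was taken at 24 hpi, with 3 replicates in each of the 4 groups. No plants lacking the transgene were analysed here, and what DEX does by itself cannot be told apart from what the kinase does.

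Metacaspases are cysteine proteases with a caspase-like fold that cut after arginine or lysine rather than after aspartate. Type I enzymes (MC1 to MC3) carry an N-terminal prodomain with a zinc finger of the kind found in LSD1, a negative regulator of cell death, and type II enzymes (MC4 to MC9) lack it. In Arabidopsis immunity MC1 promotes the hypersensitive cell death that accompanies effector-triggered immunity, and MC2 counteracts it.

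Levels are given as log2 of the deposited normalised intensity, and an effect is the difference of group means on that scale, with its standard error (SE) from a limma fit to all loci. A gene was called when its Benjamini-Hochberg adjusted p was under 0.01 and its change was over 2-fold. The median of all loci lay between 7.99 and 8.18 on the 12 arrays and the lower quartile between 4.15 and 4.20. One array went against its label. SID2 (listed as EDS16), the gene mutated in sid2, read 9.72 to 10.36 on the Col mock arrays and 6.0 to 6.26 on all 6 sid2 arrays. It read 12.48 and 12.26 on Col DEX replicates 1 and 3, but 6.08 on the array labelled Col DEX replicate 2, inside the range of the sid2 arrays. The SA marker PR1 read 13.27 on that array, 13.81 and 13.96 on the other Col DEX arrays, and 13.04 to 13.30 on the sid2 DEX arrays. Calls of the listed genes in the Col DEX group are given with and without the array labelled Col DEX replicate 2 where they differ. Its leaving out is summarised for the other metacaspases. MKK4 signal rose after DEX by 1.92 ± 0.14 (SE) in Col and 2.03 ± 0.14 in sid2, and the transgene and the endogenous gene cannot be told apart in it.

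MC8 and MC1 were called higher after DEX in both backgrounds, MC2 was called higher in sid2, and no metacaspase was called lower. Without the array labelled Col DEX replicate 2, MC2 was called in Col and MC1 was not. MC4 and MC5 rose in both backgrounds by less than 2-fold. In Col, 2 of 9 metacaspases (22.2%) were called higher, where 13.8% of all loci were. In sid2, 3 of 9 (33.3%) were called higher, against 13% of all loci. In either direction, 28.7% of all loci were called in Col and 27.8% in sid2. None of the 9 was called lower in either background, while 15% of all loci in Col and 14.8% in sid2 were. By the adjusted p alone, 4 of 9 (44.4%) were higher in Col and 5 of 9 (55.6%) in sid2, against 24.7% and 23.5% of all loci, and 0 of 9 were lower, against 21.8% in Col and 21.8% in sid2. With the array labelled Col DEX replicate 2 left out, MC2 joined those higher in Col by the adjusted p (0.00368). In that fit 27.7% of all loci were called in Col in either direction, and their share by the adjusted p alone was not computed. The median change of the 9 was 0.61 in Col and 0.60 in sid2, where the median over all loci was 0.04 in both. With 9 members, these counts describe the family and are not a test of it.

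**Figure D1:**
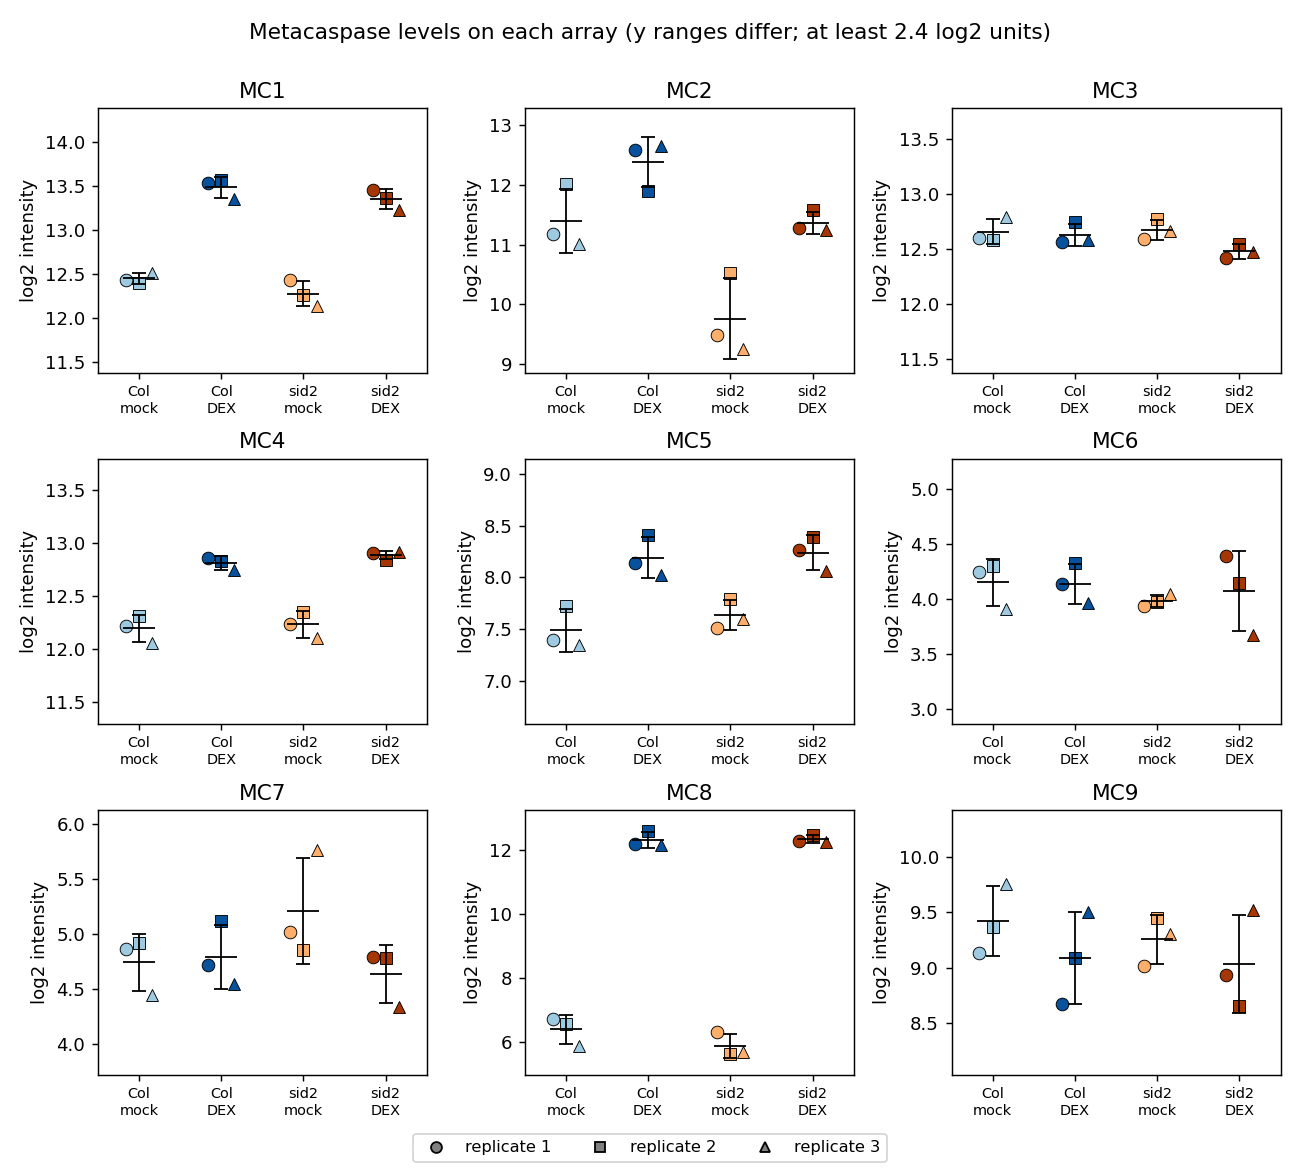
Level of each metacaspase on each array, as log2 intensity (y axis, its range set per panel), for the 4 groups (x axis). Symbols are single arrays (circle, square and triangle for replicates 1, 2 and 3) and bars are the mean ± SD (n = 3). The DEX arrays of MC8 lie at 12.14 to 12.59 and its mock arrays at 5.64 to 6.73, while the 4 groups of MC9 overlap.

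Among the type I enzymes, MC1 was at 12.44, 12.40 and 12.52 on the 3 Col mock arrays and at 13.53, 13.57 and 13.36 after DEX. In sid2 it was at 12.43, 12.27 and 12.14 on the mock arrays and at 13.46, 13.36 and 13.23 after DEX. Every DEX array of either background was above every mock array, and the spread within a group was small (SD of 0.06 to 0.14). MC1 rose by 1.04 ± 0.10 (SE, 95% CI 0.82 to 1.25) in Col, which is 2.05-fold, with an adjusted p of 3.41e-06 (limma). In sid2 it rose by 1.07 ± 0.10 (95% CI 0.86 to 1.29), or 2.11-fold, with an adjusted p of 2.74e-06. All 3 pairs of same-numbered arrays rose in each background. The rise was thus clear of the replicate spread, but its size was close to the 2-fold limit. With the array labelled Col DEX replicate 2 left out, the change in Col was 0.99 and the gene was no longer called, although its adjusted p was 3.42e-05. A test of whether the change exceeded 2-fold (limma's treat) gave adjusted p-values of 1.0 in Col and 0.903 in sid2. Over the 25 settings tried, the adjusted p of MC1 ran from 2.76e-07 to 1.0 in Col, where it was called in 21, and from 2.18e-07 to 0.903 in sid2, where it was called in 23.

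MC1 was not shown to differ between backgrounds. The DEX effect in sid2 minus that in Col was 0.04 ± 0.14 (95% CI -0.27 to 0.34, adjusted p 1.0). Its level in sid2 was lower than in Col by a mean of 0.17 under mock (adjusted p 0.753), with all 3 same-numbered pairs in that direction. From highest to lowest, the group means were Col DEX (13.49), sid2 DEX (13.35), Col mock (12.45) and sid2 mock (12.28), and the members of the upper and of the lower pair did not differ beyond their spread.

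MC2, the type I enzyme that opposes MC1 in hypersensitive death, was the metacaspase with the clearest separation between backgrounds. Its levels were 11.17, 12.01 and 11.00 on the Col mock arrays and 12.58, 11.90 and 12.65 on the Col DEX arrays. In sid2 they were 9.49, 10.53 and 9.26 on the mock arrays and 11.28, 11.58 and 11.24 after DEX. The sid2 arrays lay below all Col arrays of the same treatment, and Col mock and Col DEX overlapped through replicate 2. Under mock, replicate 2 was the highest array in both backgrounds, and it was also the highest mock array for FRK1 (7.63 in Col, 6.70 in sid2), a marker of MAPK-dependent immune responses.

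MC2 rose after DEX in sid2 by 1.60 ± 0.33 (SE, 95% CI 0.88 to 2.33), or 3.04-fold, with an adjusted p of 0.00148, and all 3 pairs rose (by 1.79, 1.04 and 1.98). Over 25 settings this adjusted p ran from 3.22e-05 to 0.219, and MC2 was called in 23 of them. In Col the change was 0.98 ± 0.33 (95% CI 0.26 to 1.71), with an adjusted p of 0.0247, and the gene was not called. Its pairwise changes there were 1.41, -0.11 and 1.65, so replicate 2 went against the other pairs. With the array labelled Col DEX replicate 2 left out, it was 1.35 ± 0.30 with an adjusted p of 0.00368, and MC2 was called. Without all 4 replicate 2 arrays it was 1.53, with an adjusted p of 7.98e-05. Over the 25 settings the adjusted p in Col ran from 7.98e-05 to 1.0. As in the other ranges over settings, these include treat, which tests for a change beyond 2-fold and not for any change. The count of 2 called metacaspases in Col therefore stayed at 2 without the array labelled Col DEX replicate 2, but its members changed from MC1 and MC8 to MC2 and MC8.

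The DEX effects on MC2 in sid2 and Col were not shown to differ. Their difference was 0.62 ± 0.47 (95% CI -0.41 to 1.65, unadjusted p 0.210, adjusted p 1.0), and 0.26 (95% CI -0.65 to 1.16) without the array labelled Col DEX replicate 2. No locus of the 32627 passed the limits for this difference, and 734 (2.25%) had an unadjusted p under 0.05.

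The level of MC2 was lower in sid2 than in Col under both treatments, but the comparison did not pass correction over all loci. Under mock it was lower by a mean of 1.63 ± 0.33 (SE, 95% CI of the sid2 effect -2.36 to -0.91), with pairwise effects of -1.68, -1.48 and -1.75. The unadjusted p was 4.60e-04 and the adjusted p 0.472, and over the 25 settings the adjusted p ran from 0.0390 to 1.0. One locus in all, the SA marker PR1, was called for the sid2 effect under mock (0.00306% of loci), and 2267 (6.95%) had an unadjusted p under 0.05. SID2 itself, the mutated gene, was not called (-3.97 ± 1.19, adjusted p 0.615), although all 3 pairs were lower. Its SE includes the spread of SID2 over the Col DEX arrays (SD 3.63). A missing call here thus does not show that a gene was unaffected by the mutation. Leaving out Col DEX replicate 2 kept the MC2 effect under mock at -1.63, with an SE of 0.27 (unadjusted p 1.24e-04, adjusted p 0.145). After DEX the sid2 effect on MC2 was -1.01 ± 0.33 (95% CI -1.74 to -0.29, unadjusted p 0.0108, adjusted p 0.793), with pairwise effects of -1.31, -0.32 and -1.41, and no locus was called for this effect (5.77% had an unadjusted p under 0.05). Without the array labelled Col DEX replicate 2 it was -1.38 ± 0.30 (95% CI -2.06 to -0.70, adjusted p 0.194). That array read 11.90 for MC2, between the other Col DEX arrays and the sid2 DEX arrays. The order of the MC2 group means was Col DEX (12.38), Col mock (11.39), sid2 DEX (11.36) and sid2 mock (9.76), and the middle pair overlapped fully.

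**Figure D2:**
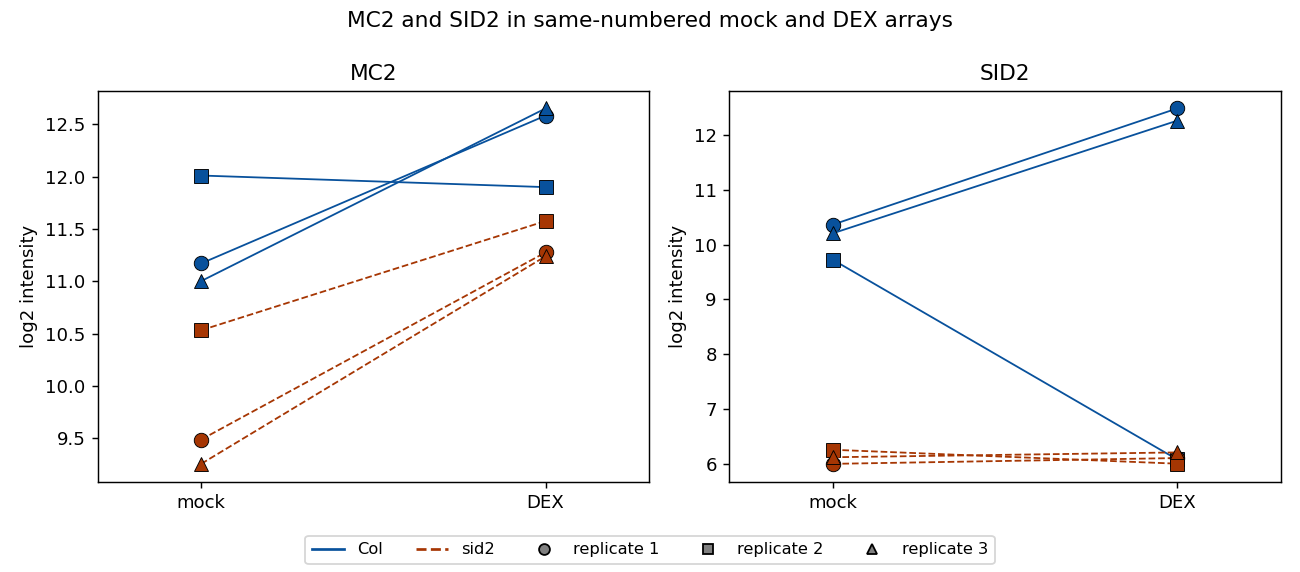
MC2 (left) and SID2 (right) as log2 intensity (y axis) on mock and DEX arrays (x axis), with lines joining same-numbered arrays of a background. Symbols are single arrays of replicates 1, 2 and 3. MC2 rose in all sid2 pairs and in Col pairs 1 and 3. SID2 read 6.08 on the array labelled Col DEX replicate 2, inside the range of the sid2 arrays and against its label.

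Among the 9 metacaspases, MC2 was the only one whose Col and sid2 mock arrays did not overlap (background 10.2% of loci), and MC2 and MC3 were those whose Col and sid2 DEX arrays did not (background 10.8%). MC3, a type I enzyme with a role in the phloem, stayed within 12.42 to 12.79 on all 12 arrays. Its changes after DEX were -0.03 ± 0.09 (SE, adjusted p 0.801) in Col and -0.20 ± 0.09 (adjusted p 0.0844) in sid2. All 3 sid2 pairs were lower, yet the 95% CI in sid2 (-0.40 to 3.43e-05) still reached no change, and any effect in Col was within -0.23 to 0.17. The summed intensity of the 2 phloem markers was 14860 to 15646 on the Col mock arrays and 20942 to 21569 after DEX, and 14928 to 18220 and 20009 to 21990 in sid2. Their part in the values of MC3 was not tested.

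MC8 rose more than any other metacaspase. MC8 is a type II enzyme linked to cell death under oxidative stress and UV light. It was at 6.73, 6.59 and 5.90 on the Col mock arrays and at 12.20, 12.59 and 12.14 on the Col DEX arrays. In sid2 it was at 6.33, 5.64 and 5.71 under mock and at 12.29, 12.48 and 12.24 after DEX. The mock arrays lay below the median of all loci and the DEX arrays above the upper quartile (11.08 to 11.14 on the 12 arrays), with no overlap.

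MC8 rose by 5.90 ± 0.21 (SE, 95% CI 5.43 to 6.38) in Col, or 59.8-fold, with an adjusted p of 2.75e-09. In sid2 it rose by 6.44 ± 0.21 (95% CI 5.97 to 6.92), or 87.0-fold, with an adjusted p of 1.81e-09. Among all 32627 loci, this was the change of rank 189 in Col and 111 in sid2, counted from the largest rise. MC8 was called in both backgrounds under all 25 settings, with changes of 5.65 to 6.05 in Col and 6.10 to 6.65 in sid2. The adjusted p was at most 4.90e-06 in Col and 4.15e-06 in sid2.

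The rise of MC8 was not shown to differ between backgrounds, with a difference of 0.54 ± 0.30 (95% CI -0.13 to 1.21, unadjusted p 0.103, adjusted p 1.0). Under mock, MC8 was lower in sid2 in all 3 pairs, by a mean of 0.51 ± 0.21 (unadjusted p 0.0357, adjusted p 0.703), and the groups overlapped. After DEX the group means were 12.31 in Col and 12.33 in sid2.

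MC4 and MC5, both type II, rose by less than 2-fold and were not called. MC4 is the calcium-activated metacaspase that matures PROPEP1 into the danger peptide Pep1 upon wounding. It was at 12.21, 12.31 and 12.06 on the Col mock arrays and at 12.86, 12.83 and 12.74 after DEX, and in sid2 at 12.24, 12.35 and 12.10 and at 12.91, 12.84 and 12.91. Mock and DEX arrays did not overlap in either background. The change was 0.61 ± 0.09 (SE, 1.53-fold, adjusted p 1.17e-04) in Col and 0.66 ± 0.09 (1.58-fold, adjusted p 7.27e-05) in sid2, with all 3 pairs higher in each. The upper bounds of the 95% CI, 0.81 and 0.85, stayed under the 2-fold limit.

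MC5 was at 7.39, 7.73 and 7.35 on the Col mock arrays and at 8.14, 8.41 and 8.03 after DEX. In sid2 it was at 7.51, 7.80 and 7.60 under mock and at 8.27, 8.39 and 8.06 after DEX. The groups were again apart, and replicate 2 was the highest array in each of the 4 groups. The change was 0.70 ± 0.12 (SE, 1.63-fold, adjusted p 3.14e-04) in Col and 0.60 ± 0.12 (1.52-fold, adjusted p 9.90e-04) in sid2. Neither MC4 nor MC5 showed a difference between the DEX effects (0.04 with 95% CI -0.24 to 0.32, and -0.10 with 95% CI -0.47 to 0.26).

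MC6 and MC7 were near the lower quartile of the arrays. MC6 stayed within 3.68 to 4.39 on all 12 arrays, with changes of -0.01 ± 0.16 (SE, adjusted p 0.961) in Col and 0.09 ± 0.16 (adjusted p 0.672) in sid2. MC7 lay between 4.34 and 5.12 on 11 arrays and at 5.76 on sid2 mock replicate 3. Its change was 0.05 ± 0.24 (adjusted p 0.877) in Col and -0.57 ± 0.24 (adjusted p 0.0679) in sid2, and the pairwise changes in sid2 were -0.23, -0.07 and -1.42. The third pair, which holds the high mock array, thus carried most of that mean. Whether these intensities stood above background signal was not tested.

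MC4 to MC7 stand close together in the genome. In RefSeq's gene order on chromosome 1, MC7, MC6 and MC5 follow each other directly, and 1 other entry stands between MC5 and MC4. Of these 4 neighbours, MC4 and MC5 were higher after DEX by the adjusted p and MC6 and MC7 were not. MC1 and MC8 also lie on chromosome 1, MC2 on chromosome 4, and MC3 and MC9 on chromosome 5. The probes were not analysed, so signal shared between these related copies cannot be told apart.

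MC9, a type II enzyme that acts in xylem cells as they clear their contents, was not called. Its levels were 9.13, 9.37 and 9.76 on the Col mock arrays and 8.67, 9.09 and 9.51 after DEX. In sid2 they were 9.02, 9.45 and 9.30 under mock and 8.93, 8.65 and 9.52 after DEX. All 4 groups overlapped. The change was -0.33 ± 0.22 (SE, 95% CI -0.81 to 0.15, adjusted p 0.224) in Col, with all 3 pairs lower, and -0.22 ± 0.22 (95% CI -0.70 to 0.26, adjusted p 0.422) in sid2. The summed intensity of 5 xylem markers was 1989 to 3354 on the Col mock and 1917 to 2537 on the Col DEX arrays, which overlapped. In sid2 it was 2617 to 3597 under mock and 2032 to 2516 after DEX, with every DEX array below every mock array, and its part in the values of MC9 was not tested.

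**Figure D3:**
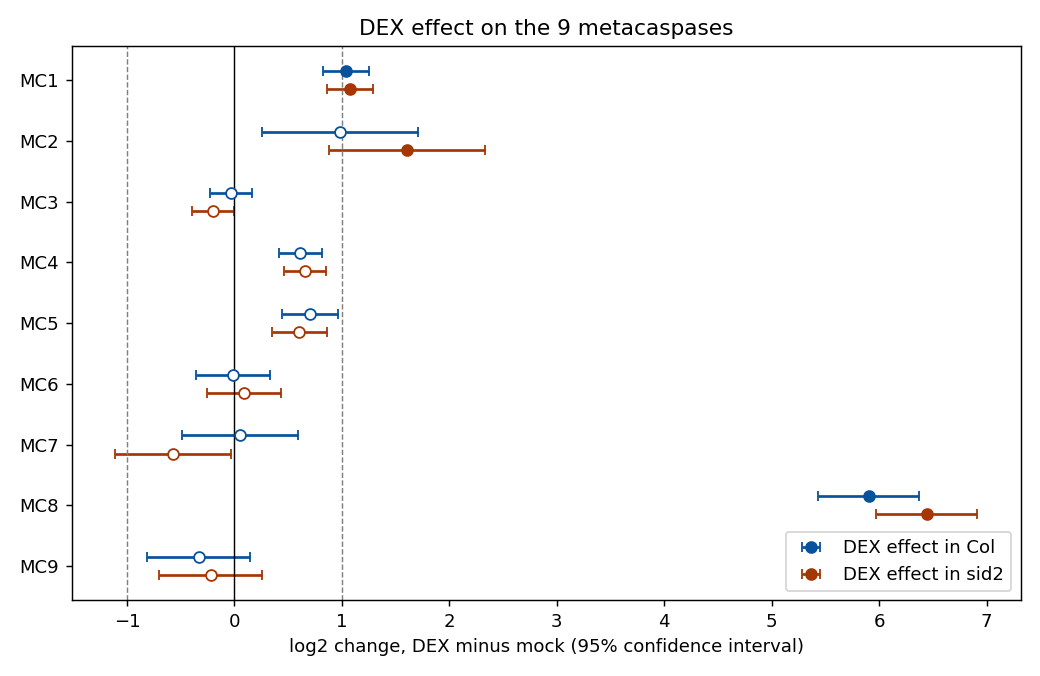
DEX effect on each metacaspase as log2 change (x axis, DEX minus mock) in Col (blue) and sid2 (brown), with 95% confidence intervals from the limma fit (n = 3 arrays per group). Filled points were called and dashed lines mark 2-fold. MC8 stands at 5.90 and 6.44, and MC4 and MC5 lie between no change and the 2-fold line.

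With the array labelled Col DEX replicate 2 left out, MC8 was still called in Col (5.77 ± 0.24, adjusted p 4.36e-08), and its difference between backgrounds was 0.68 (95% CI -0.03 to 1.38, unadjusted p 0.0578). The change in Col was then 0.62 for MC4, 0.64 for MC5, -0.08 for MC3, -0.09 for MC6, -0.11 for MC7 and -0.35 for MC9, none of which was called. MC7 thereby changed sign in Col.

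Counted over the family, mock and DEX arrays did not overlap for 4 of 9 metacaspases in Col (MC1, MC4, MC5 and MC8) and for 7 of 9 in sid2 (these 4 with MC2, MC3 and MC7). Of all loci, 57.7% were apart in Col and 60.6% in sid2. With the array labelled Col DEX replicate 2 left out, MC2 and MC3 were also apart in Col. For MC2 the mock arrays then reached 12.01 and the DEX arrays read 12.58 and 12.65. For MC3 the lowest mock array read 12.581 and the highest DEX array 12.577. Groups are more easily apart with 2 DEX arrays, and the share of all loci was not computed for that case. MC3 and MC7 were the members that lay lower after DEX in sid2 by this count.

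Because leaves were measured in bulk, fewer cells of a type and less RNA per cell cannot be told apart. The summed intensity of 3 mesophyll markers (RBCS1A, RCA and CAB1) was 50958 to 55046 on the Col mock arrays and 23870 to 34228 after DEX, and 54169 to 55044 and 26870 to 34627 in sid2. That of 3 epidermis and guard cell markers (ATML1, MYB60 and FAMA) was 5192 to 7136 and 1757 to 2026 in Col, and 5055 to 6758 and 1720 to 2184 in sid2. ATML1 and MYB60 were called lower in both backgrounds, but FAMA, a guard cell gene, was not called and changed by 0.14 in Col and 0.29 in sid2, upward in all pairs. Of the mesophyll markers, 2 of 3 were called lower in Col and 1 of 3 in sid2, against 15% and 14.8% of all loci. These counts differ by RBCS1A, which changed by -1.17 in Col and by -0.95 (adjusted p 1.48e-04) in sid2, just under 2-fold. Both sums were lower on every DEX array while MC1, MC4, MC5 and MC8 were higher. No marker was listed at 0, and their part in the changes of the metacaspases was not tested.

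The genes whose profile over the 12 arrays was most like that of each called metacaspase were ranked by Pearson's r, which here mainly follows the division into mock and DEX arrays. For MC8 they were AT3G22060, ATOBGM (AT1G07620) and AT3G15518, each with r = 0.998. For MC1 they were MBD7 (AT5G59800) and AT4G16100, both with r = 0.992, and AT5G18900 with r = 0.991. For MC2 they were AT3G61198 (r = 0.950), AT1G13470 (r = 0.947) and AT3G07195 (r = 0.943), so that no locus followed MC2 as closely as others followed MC1 or MC8. After the group means were removed, the correlation with MC2 was 0.901 for AT1G13470, 0.727 for AT3G61198 and 0.724 for AT3G07195. In the same way it was 0.757 to 0.799 for the loci listed for MC1 and 0.649 to 0.885 for those listed for MC8.

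Genes that act with metacaspases were followed as 13 listed partners. In each background 4 of 13 (30.8%) were called higher and 1 (7.69%) lower, against the shares of all loci given above. LSD1, which binds MC1 and restrains it, stayed at 12.74 to 13.01 on all 12 arrays, with changes of -0.05 ± 0.08 (SE, adjusted p 0.608) in Col and -0.11 ± 0.08 (adjusted p 0.285) in sid2. LOL1, which acts opposite to LSD1 as a promoter of cell death, was at 12.04 to 12.32 on the Col mock arrays and at 9.51 to 10.20 after DEX. It fell by 2.43 ± 0.17 (adjusted p 3.26e-07) in Col, and its change in sid2 was -2.24 ± 0.17 (adjusted p 6.71e-07). MC1 thus rose on the arrays on which LOL1 fell, and LSD1 was not called.

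The 3 listed precursors of Pep danger peptides, of which PROPEP1 is a substrate of MC4, all rose. PROPEP1 was at 6.28 to 6.76 on the Col mock arrays and at 7.57 to 8.37 after DEX, a rise of 1.53 ± 0.19 (SE, adjusted p 3.77e-05), and it rose by 1.66 ± 0.19 (adjusted p 2.09e-05) in sid2. PROPEP3 was at 3.65 to 4.10 on all mock arrays and at 10.23 to 11.33 on all DEX arrays. It rose by 6.96 ± 0.25 (adjusted p 2.30e-09) in Col and 6.86 ± 0.25 (adjusted p 2.76e-09) in sid2. PROPEP2 rose by 3.62 ± 0.20 and 3.07 ± 0.20 from mock levels likewise below the lower quartile of the arrays. Whether these mock signals of PROPEP2 and PROPEP3 stood above background was not tested, so the sizes of both rises may be lower bounds. SERPIN1, the protease inhibitor that blocks MC9, was at 10.59 to 10.92 on the Col mock arrays and at 11.87 to 12.13 after DEX. It rose in Col by 1.20 ± 0.13 (adjusted p 8.45e-06), and by 1.19 ± 0.13 (adjusted p 9.35e-06) in sid2.

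**Figure D4:**
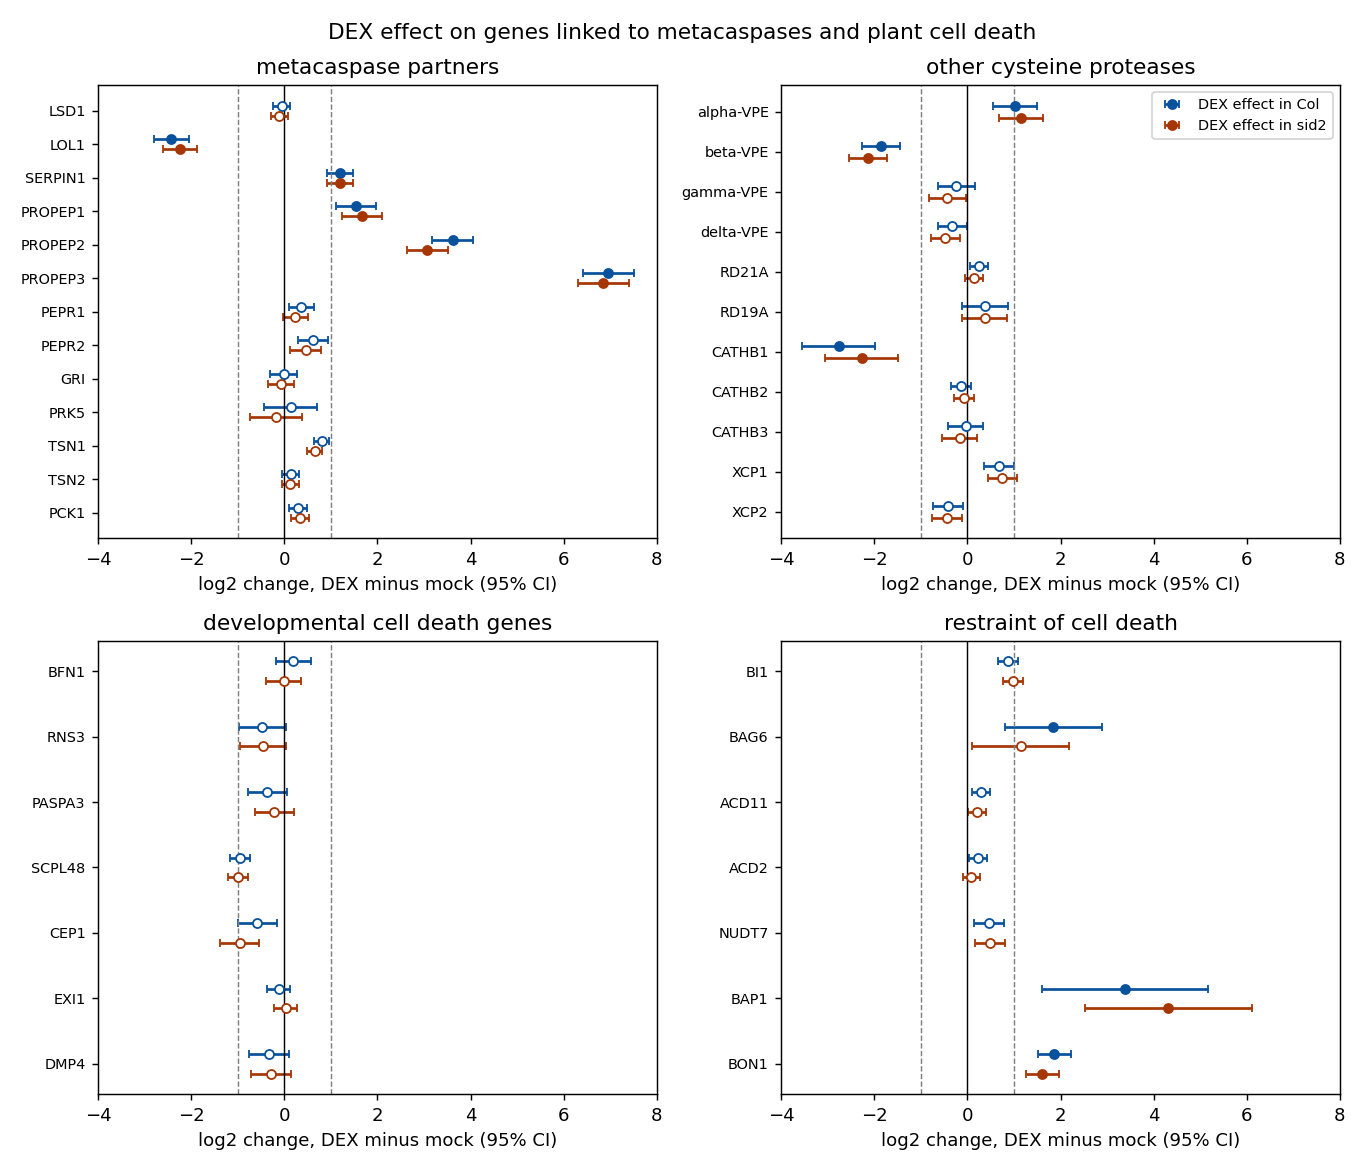
DEX effect as log2 change (x axis, DEX minus mock) in Col (blue) and sid2 (brown) with 95% confidence intervals (n = 3 arrays per group) for 4 lists of genes linked to metacaspases and plant cell death. Filled points were called and dashed lines mark 2-fold. Among the partners, PROPEP3 (6.96 and 6.86) stands highest, and LOL1 (-2.43 and -2.24) lies lowest. No developmental cell death gene was called.

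The metacaspase pattern was set beside that of other proteases and cell death genes. Of 11 cysteine proteases outside the family, 1 (9.09%) was called higher and 2 (18.2%) lower in each background, which is near the shares of all loci (13.8% higher and 15% lower in Col, 13% and 14.8% in sid2). The vacuolar processing enzyme alpha-VPE rose by 1.03 ± 0.21 (SE, adjusted p 0.00159) in Col, while beta-VPE and the cathepsin B CATHB1 fell by 1.86 ± 0.19 (adjusted p 6.07e-06) and 2.76 ± 0.36 (adjusted p 4.48e-05). Gamma-VPE, the vacuolar protease with caspase-1-like activity, changed by -0.24 ± 0.18 (adjusted p 0.282) in Col and was not called. None of 7 genes that mark developmental cell death was called in either direction, where 28.7% of all loci were in Col and 27.8% in sid2. SCPL48 was nearest to the limit, with changes of -0.95 (adjusted p 6.21e-06) in Col and -0.998 (adjusted p 4.43e-06) in sid2, just under 2-fold. Of 7 genes that restrain cell death, 3 (42.9%) were called higher in Col and 2 (28.6%) in sid2, against 13.8% and 13% of all loci. BAP1 and its partner BON1 were called in both (3.39 ± 0.81 and 1.87 ± 0.16 in Col, 4.31 ± 0.81 and 1.61 ± 0.16 in sid2). The adjusted p in Col was 0.00397 for BAP1 and 1.76e-06 for BON1. BAP1 read 10.62 on Col mock replicate 2, against 6.24 and 6.74 on replicates 1 and 3, and rose by 1.12 in that pair. Without the array labelled Col DEX replicate 2 its adjusted p in Col was 0.00994. BAG6 was called in Col (1.85 ± 0.47, adjusted p 0.00565), and its change in sid2 was 1.14 (adjusted p 0.0596). With the array labelled Col DEX replicate 2 left out, BAG6 was not called in Col (1.84 ± 0.55, adjusted p 0.0178), which left 2 of 7, and the counts of the other lists did not change.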

How the data were processed

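The authors hybridised Cy3-labelled leaf RNA to NimbleGen 12x135K arrays of TAIR9 gene models (1 colour) and deposited intensity values on a linear scale, 1 per locus, after RMA in NimbleGen software (version not given in the sources used here). Per the methods, the more highly expressed transcript stands for a gene. Whether these 12 arrays were normalised with others is not known, and probe-level data, slide and scan date were not used here. Groups came from the labels. The replicates are 3 independent experiments.

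Here log2 intensities of 32627 loci on 12 arrays were fitted with limma 3.58.1 (R 4.3.3, statmod 1.5.0) as 4 group means, with the replicate as a random block (consensus correlation 0.208) and eBayes. P-values were adjusted by Benjamini-Hochberg over all loci, in place of the methods' Storey q-values. Equal replicate numbers were taken to mark the same experiment, which the labels do not state. Deviations from group means in same-numbered arrays correlated at 0.563 to 0.733 between mock arrays, 0.387 to 0.668 between DEX arrays, 0.174 to 0.303 between mock and DEX in Col and 0.100 to 0.215 in sid2. They correlated at 0.007 to 0.271 between Col mock and sid2 DEX, and at 0.125 to 0.241 between Col DEX and sid2 mock. Differently numbered arrays reached at most 0.092, between Col mock and sid2 DEX. The limits were an adjusted p of 0.01 and 2-fold. The fit was checked on simulated data. RefSeq's TAIR10.1 table, used only for names and gene order, held 31993 loci (98.1%).

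The genes named are all metacaspases, the 3 called members of each other list with the largest change in Col (in sid2 if none was called in Col), SERPIN1, LSD1, PROPEP1 and gamma-VPE, and the 3 loci most like each called metacaspase. Cell type markers and check genes of the transgene, the mutation and the response (MKK4, SID2, FRK1 and PR1) were listed separately. SCPL48 was named after its values were seen. Members and lists were chosen with earlier results of these data known. Alternatives were the block, samples and array weights in the fit, quantile normalisation, a pseudocount of 16, a filter on dim loci (log2 of 6), other limits, treat, and leaving out arrays. The number of arrays limits the precision.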

Additional observations from a re-analysis of the deposited data

How the results depend on the processing

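Over 25 settings, 1106 values of single metacaspase effects were computed, of which 1096 stayed on their side of the limits, 8 lost the call and 2 gained it. These values are not independent checks. The 4-fold limit and the adjusted p limit of 0.05 reuse the main fit, and treat leaves the log2 changes as they were. Leaving out a Col array can leave a change in sid2 as it was (MC8 at 6.44 without the array labelled Col DEX replicate 2). No called effect changed sign, while 42 values of 16 uncalled effects did (MC3 in Col, for example, ran from -0.13 to 0.08, and MC9 in sid2 from -0.39 to 0.07). MC6 and MC7 gave no value under the filter on dim loci, and the difference between DEX effects was not refitted on 2 groups alone. Counts of metacaspases called higher were 2 in Col and 3 in sid2 when any 1 array was left out. With treat or a 4-fold limit they were 1 in Col and 1 in sid2. Under either of these, partners called higher were 2 in each background, other cysteine proteases called higher 0, and restraint genes called higher 1. Proteases called lower were 1 in sid2 with treat and 1 in Col with the 4-fold limit. All loci called fell from 9372 in Col and 9081 in sid2 to 5328 and 5091 with treat and to 4485 and 4303 with the 4-fold limit, both stricter by construction.

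Without the replicate block, restraint genes called higher in Col were 1, as in the fit to 2 groups alone, and no other listed count moved by over 1.5 times. Developmental genes called lower were 1 in each background after quantile normalisation and 1 in sid2 with array weights, where restraint genes called higher were 4. Proteases called higher were 0 in both backgrounds with the pseudocount and with the filter on dim loci. Without all replicate 2 arrays, proteases called higher in Col were 0 and developmental genes called lower in sid2 were 1. Leaving out 1 array gave 0 to 1 proteases called higher in each background (0 without Col mock replicate 1 or Col DEX replicate 3, and 0 without sid2 DEX replicate 3). Developmental genes called lower ran from 0 to 1 in Col (1 without Col DEX replicate 1 or 3) and 0 to 2 in sid2 (2 when mock replicate 2 was left out, and 1 when DEX replicate 1 or 2 was). Restraint genes called higher ran from 1 to 3 in Col (1 without Col mock replicate 3, Col DEX replicate 1 or Col DEX replicate 3) and 2 to 3 in sid2. The cause of these shifts was not tested. Without the array labelled Col DEX replicate 2, loci called for the difference between DEX effects went from 0 to 3, and for the sid2 effect after DEX from 0 to 38.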

Other observations

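Within the family, MC4 and MC5, which are near neighbours on chromosome 1, followed each other over the 12 arrays (Pearson's r = 0.928), and r was 0.503 after group means were removed. Pairs that are not near neighbours reached higher r for levels (MC4 and MC8 0.967, MC1 and MC4 0.937). After group means were removed, MC2 and MC4, on different chromosomes, had r = 0.647. MC1 and MC8, which share the division into mock and DEX arrays, had r = 0.981 for levels and 0.331 for deviations. MC2 and SID2 had r = 0.620 for levels and 0.387 for deviations, and MC2 and the SA marker PR1 had 0.838 and 0.136. For levels, r with PR1 was higher for MC1 (0.921) and MC8 (0.907) than for MC2. For deviations, r with SID2 was larger in absolute value for MC5 (-0.567), MC3 (-0.495), MC7 (-0.433) and MC8 (-0.406) than for MC2. The deviations of SID2 include the array labelled Col DEX replicate 2, on which SID2 read 6.08. These values describe 12 arrays that share treatments and replicate numbers.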
